A study of Mus musculus with 6 samples.

Results

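AP-1 is a family of paired transcription factors made of FOS and JUN proteins. Together with EGR1, MYC and SRF, its genes were followed here as 10 of the 27179 genes in the deposited tables. The members were taken by gene symbol: Fos, Fosb, Fosl1, Fosl2, Jun, Junb, Jund, Egr1, Myc and Srf. The cells were C2C12, an immortalised line of mouse myoblasts, that stably carried an shRNA against BAF250A, an shRNA against BRD9 or a scrambled shRNA. All 3 groups were grown to near confluence, moved to medium with horse serum and insulin, and collected 48 h later. SWI/SNF enzymes move nucleosomes and come in several assemblies, of which BAF contains BAF250A (gene Arid1a) and ncBAF contains BRD9. Each group had 2 libraries, described by the submitters as biological duplicates. How the duplicate cultures were separated is not stated, so p-values measure the spread between these libraries, which may be technical. The labels do not say whether a line was 1 clone or a pool of infected cells. The series asks whether the forms of the enzyme are needed differently in muscle differentiation.

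FOS and JUN proteins bind DNA as pairs through a basic leucine zipper (bZIP). JUN proteins can also pair with each other, whereas FOS proteins need a JUN partner. In many cells a growth signal passing through RAS and the MAP kinases raises Fos, Fosb, Egr1 and Jun within minutes, without new protein synthesis, which gives the immediate early genes their name. SRF, bound at CArG boxes with ternary complex factors or with myocardin-related cofactors, drives part of this response and also the genes of the actin cytoskeleton. In myoblasts, high JUN, FOS or MYC activity is known to hold back differentiation, and SRF is needed for muscle genes.

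The deposited tables give each gene's mean over the libraries and its fold change but no value per library. Because these were written to 10 digits, the reads of every library could be solved from them for 26594 genes (97.8%), all 10 members included. The solved reads per library totalled 31096727 to 31951512 in the knockdown libraries and 45606430 and 48510821 in the scrambled shRNA libraries. Between 15124 and 15705 genes had a read in the knockdown libraries, against 18159 and 18760 in the scrambled shRNA libraries, so depth differs with group and its part in the results was not tested. Arid1a had normalized counts of 1262 and 993 in the BAF250A knockdown, against 6297 and 3129 with scrambled shRNA. Brd9 had 180 and 361 in the BRD9 knockdown, against 770 and 992 with scrambled shRNA. Both targeted genes were called lower in the authors' deposited table (log2 fold changes -1.95 ± 0.48 and -1.60 ± 0.54, SE; adjusted p = 0.000381 and 0.0252). Which library carries which letter of the labels is unknown, so libraries are numbered within a group by size factor, the larger first, and a normalized count is the solved reads divided by that factor.

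The start regions of 4 members are shown with matches to some of the elements through which this group of genes is known to respond. Fosb is the AP-1 member that passed the test below, Jun the one that came nearest to it, Fos the founding immediate early gene, and Srf the factor that reads CArG boxes. Each sequence is the 250 bases before the RefSeq start (build GRCm38.p6), read 5′ to 3′ on the gene's strand. They are chr7:19310046-19310295 (minus strand) for Fosb, chr12:85473640-85473889 (plus strand) for Fos, chr4:95052223-95052472 (minus strand) for Jun and chr17:46556163-46556412 (minus strand) for Srf. Capitals mark the core TGACG of the cAMP response element (CRE), the Jun element TGACATCA and CArG boxes, each searched on both strands.
Fosb: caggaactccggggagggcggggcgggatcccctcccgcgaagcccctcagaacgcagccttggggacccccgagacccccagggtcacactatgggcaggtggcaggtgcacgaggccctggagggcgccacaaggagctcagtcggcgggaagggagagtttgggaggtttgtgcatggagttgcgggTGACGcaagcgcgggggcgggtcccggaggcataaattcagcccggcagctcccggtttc
Fos: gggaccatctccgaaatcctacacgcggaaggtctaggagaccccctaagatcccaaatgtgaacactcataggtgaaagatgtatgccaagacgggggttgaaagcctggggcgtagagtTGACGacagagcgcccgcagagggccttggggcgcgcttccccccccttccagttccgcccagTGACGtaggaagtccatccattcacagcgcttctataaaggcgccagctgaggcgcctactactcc
Jun: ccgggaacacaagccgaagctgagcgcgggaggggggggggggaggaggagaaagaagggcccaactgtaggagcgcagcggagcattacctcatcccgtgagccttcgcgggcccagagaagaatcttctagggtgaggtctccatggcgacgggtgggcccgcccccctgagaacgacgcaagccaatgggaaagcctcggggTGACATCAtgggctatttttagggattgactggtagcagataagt
Srf: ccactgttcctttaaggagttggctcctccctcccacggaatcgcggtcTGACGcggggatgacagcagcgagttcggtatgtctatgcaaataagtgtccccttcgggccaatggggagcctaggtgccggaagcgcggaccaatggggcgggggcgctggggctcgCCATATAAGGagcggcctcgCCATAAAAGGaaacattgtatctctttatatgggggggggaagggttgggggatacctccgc

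Srf carries a pair of CArG boxes, 82 to 73 and 62 to 53 bases before its start, and 1.47% of all 32851 RefSeq start regions of this length hold at least 1. No CArG box was found in the windows of Fosb, Fos, Jun, Fosl2, Junb or Jund, and bases farther upstream were not searched. Jun holds TGACATCA from 45 to 38 bases before its start, which 2.93% of start regions hold. The core TGACG lies 60 to 56 bases before the start of Fosb and 66 to 62 bases before that of Fos, and 17.8% of start regions hold it. An EGR site, GCGGGGGCG or GCGTGGGCG, is present in Fosb, Fosl2 and Srf and in 3.06% of start regions. Neither the AP-1 site TGANTCA (6.75% of start regions) nor the full CRE TGACGTCA (1.55%) was found in the windows of Fosb, Fos, Jun, Srf, Fosl2, Junb or Jund, where TGACG also counts inside any TGACGTCA. Matches describe these letters only.

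Per length of merged exons, Jund stood at the top of the members in all 6 libraries, and Fosb at the bottom. Levels are given as solved reads per kilobase of merged GENCODE vM21 exons, scaled to the library's total solved reads (RPKM). Ranks depend on these lengths, which join the exons of all annotated transcripts and were 6243 bases for Fosb and 2352 for Fos. With scrambled shRNA the order by mean RPKM was Jund (478 ± 78.4, SD, n = 2), Junb (160 ± 59.0), Egr1 (96.6 ± 65.1), Jun (87.7 ± 19.2), Srf (54.8 ± 5.94), Myc (33.9 ± 16.2), Fosl2 (19.1 ± 8.45), Fosl1 (14.3 ± 0.117), Fos (2.71 ± 2.26) and Fosb (0.710 ± 0.125). Among neighbours in this order, the scrambled shRNA libraries overlapped for Junb and Egr1, Egr1 and Jun, Myc and Fosl2, and Fosl2 and Fosl1, and were apart for the other pairs. Fosl2, the gene of FRA2, had the highest RPKM of the FOS family in 5 of the 6 libraries, the exception being scrambled shRNA library 2, where Fosl1 had 14.2 and Fosl2 13.1 RPKM. Fosl2 made up 69.7% and 64.7% of summed FOS family RPKM in the BAF250A knockdown, 57.2% and 55.4% in the BRD9 knockdown, and 56.3% and 45.1% with scrambled shRNA. Fos itself, the gene most used as a mark of a fresh growth signal, had the lowest mean after Fosb in every group, at 2.43 ± 0.253 RPKM in the BAF250A knockdown and 2.61 ± 2.34 RPKM in the BRD9 knockdown.

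**Figure D1:**
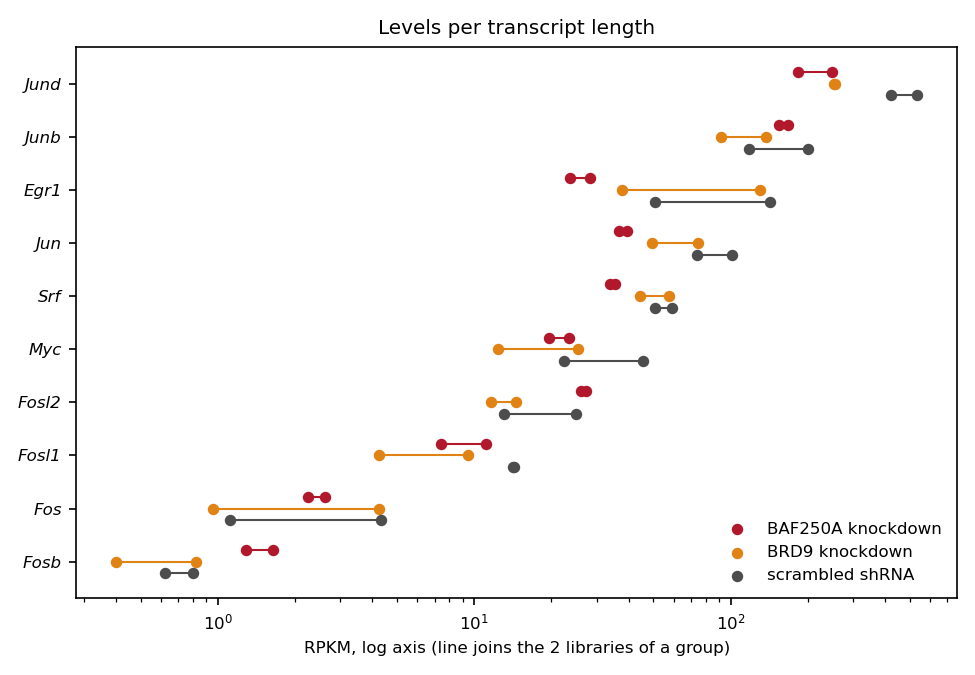
RPKM of each member on a log axis, with members ordered by their mean with scrambled shRNA and a line joining the 2 libraries of a group. Jund lies at the top in every library, and Fosb at the bottom.

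The summed RPKM of the 7 AP-1 genes was 412 and 498 in the BAF250A knockdown and 423 and 486 in the BRD9 knockdown, against 687 and 838 with scrambled shRNA. Both knockdowns lay below both scrambled shRNA libraries. With 2 libraries against 2, an exact two-sided permutation test cannot give a p below 0.333, which is the value it gave for each knockdown. In RNA from whole cultures, fewer cells of a kind and less RNA per cell cannot be told apart. Jund made up 44.5% and 49.8% of AP-1 RPKM in the BAF250A knockdown, 60.6% and 52.0% in the BRD9 knockdown, and 61.6% and 63.7% with scrambled shRNA. Junb took 37.5% and 33.8% in the BAF250A knockdown, 21.7% and 28.2% in the BRD9 knockdown, and 17.2% and 24.0% with scrambled shRNA. The JUN family as a whole held 91.0% to 96.5% of AP-1 RPKM in every library.

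After the BAF250A knockdown, Egr1 fell and Fosb rose in the authors' deposited table, and the other 8 members did not pass its adjusted p of 0.05. Those 2 of 10 members stand beside 28.7% of the 16450 genes tested in that table (11.2% higher, 17.5% lower), so the members were called no more often than genes at large. Their median log2 fold change was -0.45, against -0.18 over all genes tested and 0.03 over genes with a mean of 100 or more, which include every member. After the BRD9 knockdown 0 of 10 members passed, beside 14.4% of 17198 genes tested, and none had an unadjusted p under 0.05 in the authors' table. The members' median with BRD9 was -0.42, against -0.15 over all genes tested and 0.05 over genes with a mean of 100 or more. The members' standard errors ran from 0.42 to 0.57 for BAF250A and from 0.49 to 0.71 for BRD9 on the log2 scale. A second test, limma with voom weights and Benjamini-Hochberg adjustment on the solved reads of all 6 libraries, called 0 members in either knockdown, beside 24.5% of genes for BAF250A and 14.2% for BRD9, 4 members having an unadjusted p under 0.05 for BAF250A and 2 for BRD9. In simulated libraries with a common spread, this fit called 1 of 50 genes with a log2 change of 1. It called 21 of 50 with a change of 2. There 14428 of 14628 genes were left unchanged, whereas limma called 24.5% of genes for BAF250A in these libraries. Benjamini-Hochberg adjustment is stricter when fewer genes change, so the simulated counts do not give the power of the real fit. How often the real fit misses changes of these sizes was not measured.

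**Figure D2:**
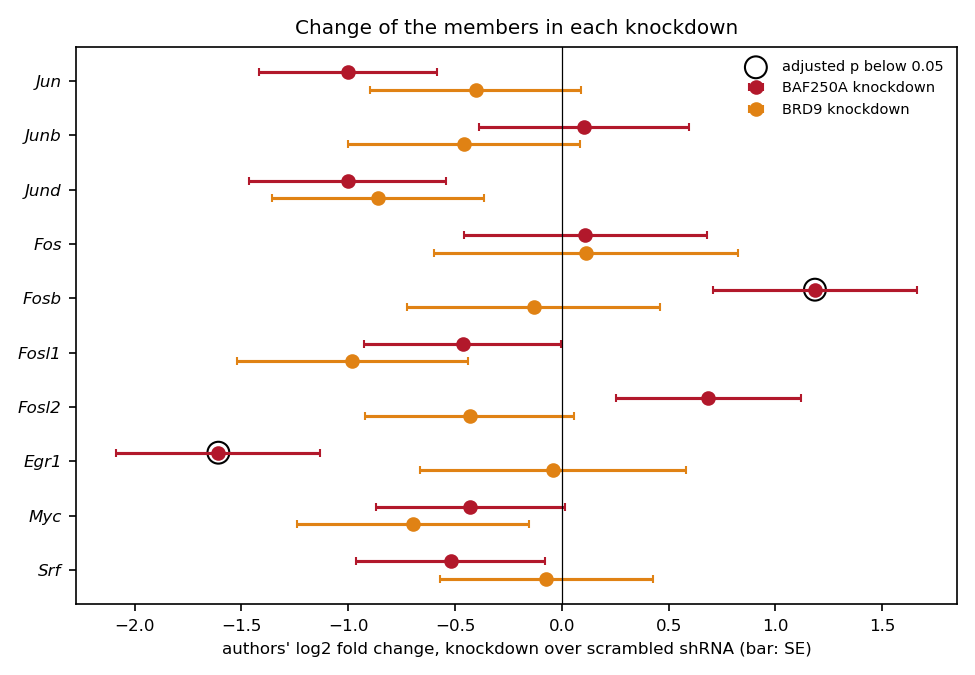
The authors' log2 fold change of each member with its standard error, for the BAF250A knockdown (red) and the BRD9 knockdown (orange) over scrambled shRNA. Circles mark the calls, Egr1 at -1.61 and Fosb at 1.18 with BAF250A.

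Among the JUN genes, Jun encodes the partner that gives AP-1 much of its activity in growing cells. Its normalized counts were 4290 and 4738 in the BAF250A knockdown and 5460 and 8502 in the BRD9 knockdown, against 9577 and 9482 with scrambled shRNA. Both knockdowns lay below the scrambled shRNA libraries, which were within 1.01-fold of each other. By RPKM the scrambled shRNA libraries were farther apart, at 101 and 74.1, and BRD9 library 2 (74.8) lay above the lower of them. The log2 fold change was -1.001 ± 0.42 (SE) for BAF250A, just outside the threshold at an adjusted p of 0.0552 in the authors' deposited table, and -0.40 ± 0.49 for BRD9 (adjusted p = 0.682). Limma gave an adjusted p of 0.0504 for BAF250A, and 0.0315 or 0.0393 when scrambled shRNA library 1 or 2 was left out. It was 0.0700 and 0.0704 without a BRD9 library and 0.383 and 0.295 without a BAF250A library. Centring the authors' fold changes on the median of genes with a mean of 100 or more put Jun past the threshold, at -1.04.

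Jund encodes the JUN protein least dependent on growth signals. It had normalized counts of 11171 and 15564 in the BAF250A knockdown and 14783 and 15011 in the BRD9 knockdown, against 20935 and 35740 with scrambled shRNA. All 4 knockdown libraries lay below both scrambled shRNA libraries, which themselves differed 1.71-fold. The log2 fold changes, -1.003 ± 0.46 for BAF250A and -0.86 ± 0.49 for BRD9, did not pass in the authors' deposited table (adjusted p = 0.0887 and 0.284). Without scrambled shRNA library 1 both passed in limma (adjusted p = 0.00728 and 0.0143), at -1.44 and -1.26. Without scrambled shRNA library 2 neither passed, at -0.67 and -0.49 (adjusted p = 0.0989 and 0.237), nor did any fit without a knockdown library. On the opposite strand, 52.6% of the exon bases of Jund are also annotated to Gm11175. The sources used here do not say whether the counting used strand, so reads of this pair cannot be told apart. The summed AP-1 RPKM, the shares of it and the top rank of Jund carry the same limit. Junb shares 7.52% of its exon bases with Prdx2 on the opposite strand, and Jun 7.28% with Junos, under this limit too. Prdx2 had log2 fold changes of 1.25 for BAF250A and 0.93 for BRD9 in the authors' deposited table (adjusted p = 0.0543 and 0.331).

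Junb, whose protein often opposes JUN, had normalized counts of 12975 and 14567 in the BAF250A knockdown and 7323 and 11235 in the BRD9 knockdown, against 8050 and 18593 with scrambled shRNA. The scrambled shRNA libraries differed 2.31-fold and bracketed all BAF250A values. The log2 fold changes were 0.10 ± 0.49 for BAF250A and -0.46 ± 0.54 for BRD9 (adjusted p = 0.903 and 0.673 in the authors' deposited table). In limma without scrambled shRNA library 1 the values were -0.44 for BAF250A and -1.04 for BRD9, and the second passed (adjusted p = 0.0382). Without scrambled shRNA library 2 they were 0.77 and 0.17, and neither passed.

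**Figure D3:**
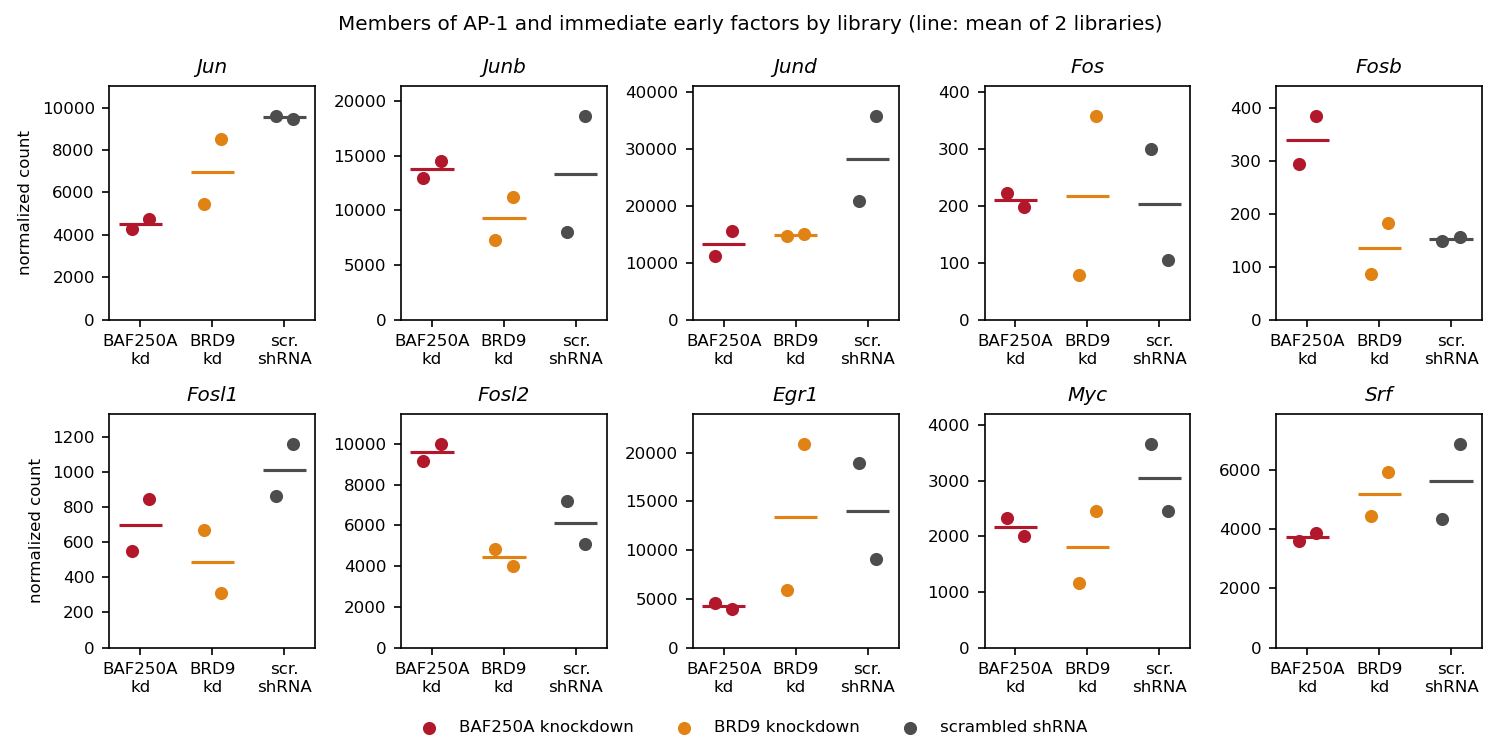
Normalized counts of the 10 members in each of the 6 libraries on linear axes from 0, with a line at the mean of each group (kd, knockdown; scr., scrambled). For Egr1 both BAF250A knockdown libraries are below all 4 others.

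Among the FOS genes, Fosb encodes a protein best known from neurons, where a stable short form builds up. Its normalized counts were 294 and 383 in the BAF250A knockdown and 86.7 and 183 in the BRD9 knockdown, against 148 and 156 with scrambled shRNA. Both BAF250A libraries were above all 4 others. Fosb rose with BAF250A knockdown in the authors' deposited table (log2 fold change 1.18 ± 0.48, adjusted p = 0.0466) and had -0.13 ± 0.59 with BRD9 (adjusted p = 0.928). This call lies at the threshold: limma gave an adjusted p of 0.113, and an adjustment over every gene with a p-value also ended it, as did centring on the median of genes with a mean of 100 or more. Even where it was highest, Fosb stood at 1.29 and 1.63 RPKM.

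Fosl2, whose protein FRA2 is a slower and longer-lasting FOS partner, had normalized counts of 9181 and 9980 in the BAF250A knockdown and 4858 and 4006 in the BRD9 knockdown, against 7191 and 5082 with scrambled shRNA. Both BAF250A libraries were above, and both BRD9 libraries below, the scrambled shRNA libraries. By RPKM, BRD9 library 1 (14.5) lay above scrambled shRNA library 2 (13.1). Neither change passed in the authors' deposited table, with log2 fold changes of 0.69 ± 0.43 for BAF250A (adjusted p = 0.235) and -0.43 ± 0.49 for BRD9 (adjusted p = 0.655). Without scrambled shRNA library 1, limma called it for BAF250A at 0.91 (adjusted p = 0.0249). Without library 2 it was 0.41 (adjusted p = 0.226), and without a knockdown library the adjusted p ran from 0.256 to 0.654.

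Fos had normalized counts of 224 and 199 in the BAF250A knockdown and 78.0 and 357 in the BRD9 knockdown, against 301 and 105 with scrambled shRNA. The BRD9 libraries, 4.58-fold apart, enclosed every other value, and the BAF250A libraries lay between the scrambled shRNA libraries. The log2 fold changes were 0.11 ± 0.57 for BAF250A and 0.11 ± 0.71 for BRD9 (adjusted p = 0.911 and 0.95 in the authors' deposited table). As log2 ratios of mean normalized counts the values were 0.06 and 0.10, and scaling by total reads turned both signs, to -0.16 and -0.05.

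Fosl1, the gene of FRA1, had normalized counts of 549 and 848 in the BAF250A knockdown and 667 and 308 in the BRD9 knockdown, against 865 and 1157 with scrambled shRNA. All 4 knockdown libraries were below both scrambled shRNA libraries, narrowly so for BAF250A library 2. The log2 fold changes of -0.46 ± 0.46 for BAF250A and -0.98 ± 0.54 for BRD9 did not pass (adjusted p = 0.492 and 0.258 in the authors' deposited table). With BAF250A, limma gave -0.23 without BAF250A library 1 and -0.86 without library 2. With BRD9 it gave -1.69 without BRD9 library 1 and -0.58 without library 2, none of them called. Of its exon bases, 57.2% overlap those of Ccdc85b on the opposite strand, so the reads of this pair cannot be told apart either. Ccdc85b had log2 fold changes of 0.09 for BAF250A and -1.11 for BRD9 in the same table, neither of them called.

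Egr1, a zinc finger factor switched on by growth factors and stretch, had normalized counts of 4622 and 3978 in the BAF250A knockdown and 5878 and 20878 in the BRD9 knockdown, against 18978 and 9106 with scrambled shRNA. The BAF250A libraries agreed within 1.16-fold and were below all 4 others, whereas the BRD9 libraries differed 3.55-fold and the scrambled shRNA libraries 2.08-fold. Egr1 fell with BAF250A knockdown in the authors' deposited table (log2 fold change -1.61 ± 0.48, adjusted p = 0.00443), the largest change of any member in either table. With BRD9 the value was -0.04 ± 0.62 (adjusted p = 0.98). Limma put the BAF250A change at -1.62 ± 0.57 with an adjusted p of 0.0625, which does not pass. Without scrambled shRNA library 1, the library with the higher count, it was -1.09 (adjusted p = 0.214), and without library 2 it was -2.15 (adjusted p = 0.0475). Leaving out a BRD9 library gave adjusted p values of 0.0366 and 0.0365, and leaving out a BAF250A library 0.0626 and 0.121.

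Myc, which drives ribosome production and growth, had normalized counts of 2331 and 2000 in the BAF250A knockdown and 1168 and 2456 in the BRD9 knockdown, against 3658 and 2449 with scrambled shRNA. Every knockdown library but BRD9 library 2 was below both scrambled shRNA libraries. By RPKM, BAF250A library 1 (23.5) also lay above scrambled shRNA library 2 (22.5). The log2 fold changes were -0.43 ± 0.44 for BAF250A and -0.69 ± 0.54 for BRD9 (adjusted p = 0.511 and 0.47 in the authors' deposited table). Srf had 3579 and 3862 in the BAF250A knockdown and 4447 and 5918 in the BRD9 knockdown, against 4347 and 6856 with scrambled shRNA. Its BAF250A libraries were below all others, and its BRD9 libraries lay inside the scrambled shRNA range. The Srf log2 fold changes were -0.52 ± 0.44 for BAF250A and -0.07 ± 0.50 for BRD9 (adjusted p = 0.408 and 0.955 in the authors' deposited table). Without scrambled shRNA library 1, limma called Srf lower with BAF250A at -0.88 (adjusted p = 0.0356). Without library 2 it was -0.23 (adjusted p = 0.547), and no fit without a knockdown library passed. For Myc with BAF250A, limma gave -0.18 without scrambled shRNA library 1 and -0.76 without library 2. With BRD9 it gave -0.29 for Myc without BRD9 library 1 and -1.36 without library 2, none of them called.

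Counting libraries alone, 8 of 10 members did not overlap between the BAF250A knockdown and scrambled shRNA, 2 higher and 6 lower, beside 65.6% of the 14628 genes counted (29.7% higher and 36% lower). Between the BRD9 knockdown and scrambled shRNA 4 of 10 did not overlap, all of them lower (Jun, Jund, Fosl1 and Fosl2), beside 50.9% of genes (27.1% lower). Neither share stands far from that of genes at large. Those overlaps are of normalized counts. By RPKM, Jun and Fosl2 overlapped between the BRD9 knockdown and scrambled shRNA, and Myc between the BAF250A knockdown and scrambled shRNA. No share over all genes was counted by RPKM.

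Directly between the knockdowns, no member differed at an adjusted p below 0.05. The difference of the authors' log2 fold changes, BAF250A minus BRD9, was largest in size for Egr1 (-1.57 ± 0.79, SE; adjusted p = 0.574), Fosb (1.32 ± 0.76; adjusted p = 0.778) and Fosl2 (1.12 ± 0.65; adjusted p = 0.791). Those p-values come from a two-sided normal test with Benjamini-Hochberg adjustment over 16311 genes, of which 2.54% were called, and at an unadjusted p under 0.05 it gave 1 member, Egr1. That test takes the fold changes as independent although they share the scrambled shRNA libraries. With the variance reduced for the shared libraries, 3 members had an unadjusted p under 0.05, namely Egr1, Fosb and Fosl2 (adjusted p = 0.0732, 0.156 and 0.156), and 0 passed. Limma on all 6 libraries also called 0 members, beside 4.54% of genes, and 3 had an unadjusted p under 0.05. Fitted on the 4 knockdown libraries alone, a choice made after seeing the data, limma called 11.6% of 13398 genes and 1 member, Fosl2 (1.12 ± 0.20, adjusted p = 0.019). Fosb in that fit had 1.42 ± 0.42 (adjusted p = 0.0794). The libraries of the knockdowns did not overlap for Fosb, Fosl2 and Junb, higher with BAF250A, nor for Jun, Egr1 and Srf, lower with BAF250A, which is 6 of 10 members beside 58.3% of all genes (29.9% higher and 28.4% lower).

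The members' duplicates were closer in the BAF250A knockdown than in the BRD9 knockdown, on median and for each member but Jund. The Jund libraries were 1.39-fold apart in the BAF250A knockdown and 1.02-fold in the BRD9 knockdown. The widest member in the BAF250A knockdown was Fosl1, at 1.55-fold, against 2.16-fold in the BRD9 knockdown. Among members, the median fold between the 2 libraries of a group was 1.14 in the BAF250A knockdown, 1.81 in the BRD9 knockdown and 1.53 with scrambled shRNA. Over the 11261 to 11273 genes with a mean of 100 or more it was 1.11, 1.33 and 1.81 in the same groups. In the BRD9 knockdown 5 of 10 members (Fos, Egr1, Fosl1, Fosb and Myc) differed more than 2-fold between the libraries, where 12.1% of all genes did. With scrambled shRNA it was 3 of 10 (Fos, Junb and Egr1), where 39.9% of all genes did, and in the BAF250A knockdown 0 of 10, where 1.02% did. BRD9 library 2 was the higher for 8 of the 10 members (the exceptions were Fosl1 and Fosl2), where it was so for 5804 of 11271 genes. Of 25 other immediate early genes, 28% differed more than 2-fold in the BRD9 knockdown, with a median of 1.39.

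**Figure D4:**
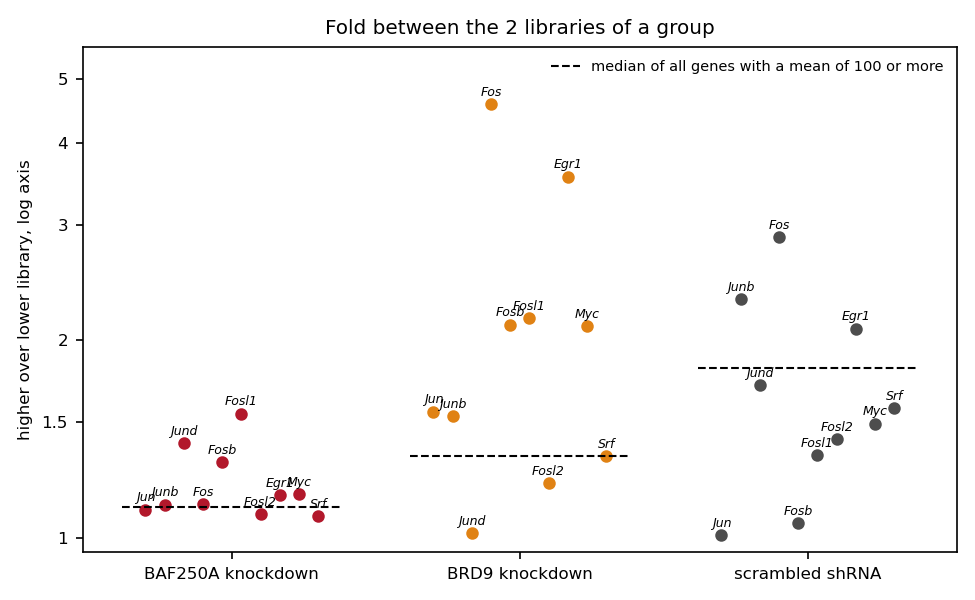
The higher library over the lower one for each member in each group, on a log axis, with a dashed line at the median of all genes with a mean of 100 or more. Fos at 4.58 and Egr1 at 3.55 in the BRD9 knockdown lie farthest from 1.

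**Figure D5:**
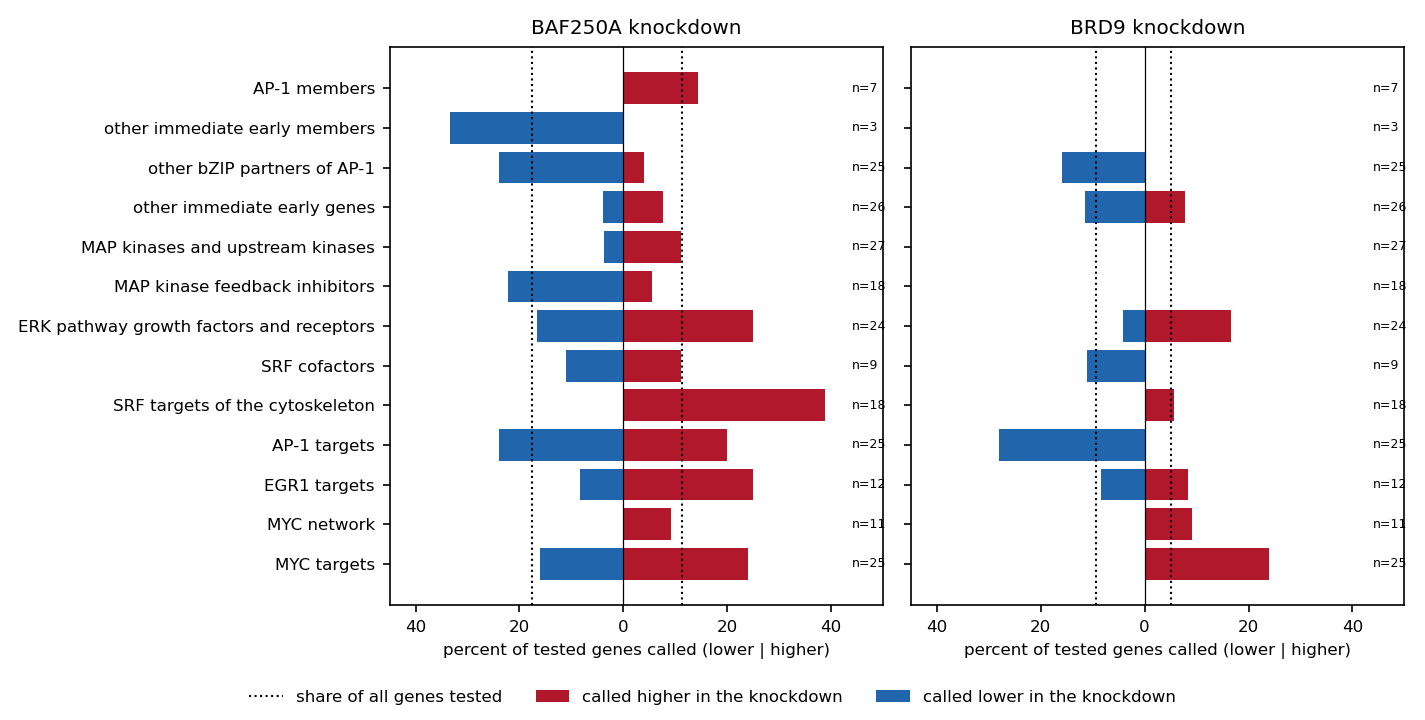
Percent of the tested genes of each list called lower (left of 0) or higher (right of 0) in the authors' tables, with the number tested at the right and dotted lines at the share over all genes tested. The cytoskeletal SRF targets with BAF250A reach farthest right, with 7 of 18 higher, of the lists drawn, which leave out the cell type markers.

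Several lists of genes around the members were followed, chosen with earlier results of these data known. Each is described by its counts, the other bZIP genes and the SRF targets also by their median, and none has a test of its own. Other bZIP genes encode possible partners of FOS and JUN. In the BAF250A knockdown 1 of 25 tested rose and 6 fell, and in the BRD9 knockdown 0 rose and 4 fell. The shares over all genes tested, against which each list below is read, were 11.2% higher and 17.5% lower with BAF250A and 5.11% higher and 9.33% lower with BRD9. Their median log2 fold changes were -0.05 and -0.29, against -0.18 and -0.15 over all genes tested. Atf3, a stress-induced partner of JUN, had normalized counts of 224 and 161 in the BAF250A knockdown and 318 and 173 in the BRD9 knockdown, against 1601 and 2528 with scrambled shRNA. It fell in both of the authors' deposited tables (-3.29 ± 0.47 and -2.92 ± 0.53, adjusted p = 6.49e-11 and 9.49e-07), and limma called both. Atf5 fell in both as well (-1.55 ± 0.46 and -2.07 ± 0.51). Ddit3, which encodes the stress factor CHOP, fell with BRD9 (-2.60 ± 0.55), and Mafa fell with BAF250A (-1.90 ± 0.55). Jdp2, whose protein represses AP-1 sites, had -0.43 ± 0.46 with BAF250A and -0.21 ± 0.52 with BRD9, neither called.

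Of the other immediate early genes, 2 of 26 tested rose and 1 fell with BAF250A, and 2 rose and 3 fell with BRD9. Klf10, a TGF-beta-induced zinc finger gene, rose in both of the authors' tables (1.48 ± 0.48 and 1.64 ± 0.54). Ccn1 and Ccn2 encode matricellular proteins of the same family. Ccn1 had normalized counts of 40923 and 38797 in the BAF250A knockdown and 3183 and 13666 in the BRD9 knockdown, against 14009 and 11335 with scrambled shRNA. It rose with BAF250A (1.68 ± 0.42, adjusted p = 0.000518 in the authors' deposited table), whereas Ccn2 fell in both (-1.20 ± 0.43 and -2.58 ± 0.58), the first of which limma lost (adjusted p = 0.0726). Klf2 rose with BRD9 (1.61 ± 0.50), where Ier3 fell (-1.60 ± 0.51).

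The kinases that carry growth signals to the members gave 3 higher and 1 lower of 27 with BAF250A, and 0 of 27 with BRD9, beside 28.7% and 14.4% of all genes called. Mapk3, which encodes ERK1, rose with BAF250A (1.51 ± 0.47, adjusted p = 0.00686 in the authors' deposited table), and Hras fell (-1.89 ± 0.49, adjusted p = 0.000753). The phosphatases and Sprouty genes that switch the pathway off gave 1 higher and 4 lower of 18 with BAF250A, and 0 of 18 with BRD9. Dusp4 had normalized counts of 379 and 355 in the BAF250A knockdown and 1107 and 833 in the BRD9 knockdown, against 2426 and 1957 with scrambled shRNA. It fell with BAF250A (-2.47 ± 0.43), as did Dusp8 (-1.48 ± 0.43), while Spry1 rose (1.44 ± 0.43), all by the authors' adjusted p. Of the growth factors and receptors upstream, 6 rose and 4 fell of 24 with BAF250A, and 4 rose and 1 fell with BRD9. Fgfr4, a fibroblast growth factor receptor of myoblasts, had normalized counts of 1282 and 1488 in the BAF250A knockdown and 1567 and 2402 in the BRD9 knockdown, against 63.0 and 68.6 with scrambled shRNA, and rose in both of the authors' tables (4.36 ± 0.45 and 4.76 ± 0.51). Pdgfrb rose in both too (2.92 ± 0.42 and 2.60 ± 0.50), and Areg, which encodes an EGF receptor ligand, fell with BAF250A (-3.42 ± 0.49).

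Of the list of SRF targets, mostly cytoskeletal genes, with the uncalled Srf itself counted in it, 7 of 18 rose and 0 fell with BAF250A, beside 11.2% of all genes higher, while 1 of 18 rose with BRD9, beside 5.11%. The list's median log2 fold change was 0.76 with BAF250A and 0.43 with BRD9. Myl9, a smooth muscle myosin light chain gene, had normalized counts of 11043 and 12227 in the BAF250A knockdown and 6879 and 9295 in the BRD9 knockdown, against 711 and 1165 with scrambled shRNA. It rose in both of the authors' tables (3.61 ± 0.45 and 3.03 ± 0.50). Cnn1 and Tagln, which encode the actin-binding proteins calponin and transgelin, rose with BAF250A (3.60 ± 0.43 and 3.47 ± 0.42), where their BRD9 values of 0.43 ± 0.66 and 1.56 ± 0.59 were not called. The SRF cofactors gave 1 higher and 1 lower of 9 with BAF250A and 1 lower with BRD9. Nkx2-5 fell in both of the authors' tables (-1.35 ± 0.48 and -3.20 ± 0.53), and Mrtfa and Elk1, the genes of an actin-regulated cofactor and a ternary complex factor, were called in neither.

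Genes known as AP-1 targets moved both ways with BAF250A, where 5 of 25 rose and 6 fell, and 0 rose and 7 fell with BRD9, beside 9.33% of all genes lower. Ptgs2, the gene of cyclooxygenase-2, had normalized counts of 2360 and 2370 in the BAF250A knockdown and 285 and 103 in the BRD9 knockdown, against 925 and 415 with scrambled shRNA. It rose with BAF250A (1.83 ± 0.49) and fell with BRD9 (-1.68 ± 0.62, adjusted p = 0.0468), and limma kept the first call and lost the second (adjusted p = 0.0211 and 0.0577). Mmp9 and Ccl2 fell with BRD9 (-1.87 ± 0.57 and -1.86 ± 0.51). Among EGR1 targets 3 of 12 rose and 1 fell with BAF250A, and 1 rose and 1 fell with BRD9. F3, the tissue factor gene, rose with BAF250A (2.93 ± 0.48), and Igf2 rose in both (2.22 ± 0.43 and 2.29 ± 0.55), while Apoe fell in both (-2.02 ± 0.54 and -2.40 ± 0.62). Nab2, which encodes a repressor of EGR1 that EGR1 itself induces, had 0.65 ± 0.46 and 0.29 ± 0.51, neither called.

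The MYC network, its partners and antagonists, gave 1 of 11 higher with BAF250A and 1 of 11 with BRD9, and 0 lower in each. Mxi1, a gene of an antagonist, rose with BAF250A (1.29 ± 0.42), and Mycl, a relative of Myc, rose with BRD9 (2.51 ± 0.56). Of 25 textbook MYC targets 6 rose and 4 fell with BAF250A, and 6 rose and 0 fell with BRD9, where 5.11% of all genes were higher and 9.33% lower (11.2% and 17.5% with BAF250A). Fbl, the gene of the nucleolar methyltransferase fibrillarin, had normalized counts of 3127 and 4009 in the BAF250A knockdown and 2642 and 5847 in the BRD9 knockdown, against 210 and 430 with scrambled shRNA, and rose in both of the authors' tables (3.45 ± 0.48 and 3.59 ± 0.57). Npm1 and Eif4a1 rose in both as well (3.27 ± 0.44 and 2.61 ± 0.50 for Npm1, 2.34 ± 0.42 and 2.36 ± 0.51 for Eif4a1). Processed copies of such genes are known, among which the counting could divide reads, so both values are uncertain.

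The state of the cultures differed beside these values, and its part in them was not tested. Of 7 markers of myoblasts and myotubes, 5 fell with BAF250A (Myf5, Myog, Myh3, Mymk and Ckm), and 1 rose (Myod1) and 1 fell (Myf5) with BRD9. With BAF250A, Myod1 had 0.97 ± 0.47 and Des -0.79 ± 0.49, neither called. The 5 markers with solved reads, which leave out Des and Mymk, summed to normalized counts of 17587 and 18613 in the BAF250A knockdown and 142330 and 166790 in the BRD9 knockdown, against 74741 and 145900 with scrambled shRNA. Myh3 was the largest part of the scrambled shRNA sums, at 48439 and 75199, against 2704 and 2632 in the BAF250A knockdown. Of 4 fibroblast markers, 4 rose with BAF250A and 2 of the 3 tested rose with BRD9, and the 3 with solved reads summed to 220650 and 227380 in the BAF250A knockdown and 82726 and 101780 in the BRD9 knockdown, against 11619 and 11767 with scrambled shRNA. Col1a2 made up most of that sum, and Thy1 had 0 reads in both BRD9 libraries. Leukocyte markers summed to 18.5 to 28.8 in the knockdowns, against 130 and 180 with scrambled shRNA, nearly all of it Cd68. Ptprc and Adgre1 were at 0 in all 4 knockdown libraries and in scrambled shRNA library 2, and at 3.06 and 1.22 in scrambled shRNA library 1. The endothelial markers Pecam1 and Cdh5 summed to at most 16.3 in every library, while Kdr, whose reads could not be solved, fell in both of the authors' tables (-7.60 ± 1.16 with BAF250A and -5.32 ± 0.78 with BRD9). Summed epithelial markers were at or below 33.6. Neuron markers summed to 13.8 and 14.4 in the BAF250A knockdown and 247 to 1263 in the BRD9 knockdown, against 75.7 to 276 with scrambled shRNA. Most of each sum was Map2 alone, with Rbfox3 at 8.80 or less and Snap25 at 0 throughout.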

How the data were processed

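RNA-seq tables of 2 comparisons were used, one per knockdown, each against the same 2 scrambled shRNA libraries. The tools listed in the submitters' processing notes are DESeq2, RSEM, Bowtie, StringTie and HISAT, with build mm10 and no versions. Per the file headers, the authors deposited for each gene a mean normalized count, a signal averaged over the 4 libraries of a comparison after size-factor scaling. The authors also deposited a log2 fold change with its standard error on the log2 scale, a Wald score, a p-value and an adjusted p-value. The deposited fold changes fit a shrinkage prior that pulls uncertain values towards 0, since the solved reads return them only with one.

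Reads per library are solutions of the deposited mean and fold change in whole reads. Means were met within rounding for 100% of solved genes, which is a condition of the solving and no check of it. Both tables gave the same scrambled shRNA reads in 3994 of 3994 genes that each table alone solved. Genes whose tables shared no such reads were left out before that count, so it could not have come out otherwise. The procedure was tested on simulated data. Estimated counts may have been rounded before the authors' test, so a solved read is a unit of that test. The group shared by both tables is the scrambled shRNA, which fixes the sign of the fold changes. The 585 unsolved genes enter no total.

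Normalized counts of single libraries use median-of-ratios size factors over 13657 genes with reads in all 6. Limma 3.58.1 (R 4.3.3, voom weights) tested 14628 genes with 10 or more solved reads in at least 2 libraries, and Benjamini-Hochberg adjustment was used throughout, at 0.05. A limma fit with 1 library left out assumes that a lone library varies like the other groups. Python 3.11.15, scipy 1.17.1 and numba 0.67.0 did the rest. The main tests are the authors' own, and limma, its fits without 1 library or without controls, and scaling by total reads were chosen after seeing the data. Genes were named by rule: the 10 members, the targeted genes, and from each list up to 4 called genes with the largest change in each knockdown (mean normalized count of 100 or more), plus at most 3 that bear directly on a member. Some genes that this rule picks are not reported here. The members and lists were chosen with earlier results of these data known. Marker lists were those of myoblasts and myotubes, leukocytes, endothelium, epithelium, neurons and fibroblasts. Promoter sequences come from RefSeq (GRCm38.p6), which gave 7 of 10 members. Intervals and errors cover these libraries only.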

Additional observations from a re-analysis of the deposited data

Results flagged for a closer look

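Fosl2 normalized counts lay on opposite sides of scrambled shRNA in the knockdowns: both BAF250A libraries were above and both BRD9 libraries below the scrambled shRNA libraries. By RPKM the BRD9 side did not hold, since BRD9 library 1 (14.5) lay above scrambled shRNA library 2 (13.1). Neither change passed in the authors' deposited table (0.69, adjusted p = 0.235, and -0.43, adjusted p = 0.655). The difference of the authors' log2 fold changes, BAF250A minus BRD9, was 1.12 ± 0.65 (SE, adjusted p = 0.791 by the two-sided normal test over all genes). Limma on all 6 libraries gave an adjusted p of 0.117 for it, and limma on the 4 knockdown libraries alone 0.019.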

How the results depend on the processing

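Few members were called, and the calls depended on the setting. With BAF250A, 2 members passed as deposited, 1 when adjusted over all genes with a p-value, 1 at an adjusted p below 0.01, 0 with Bonferroni adjustment, 0 with an empirical null and 0 in limma, and 0 to 4 in limma with 1 library left out. Centring on the median of genes with a mean of 100 or more also gave 2, but Egr1 and Jun in place of Egr1 and Fosb. With BRD9 it was 0 as deposited and 0 to 2 with 1 library left out, the 2 (Junb and Jund) without scrambled shRNA library 1. Between the knockdowns it was 0, 1 in limma on the 4 knockdown libraries alone, and 0 to 1 with 1 library left out. The causes were not tested.

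Signs turned for members near 0. Fos with BRD9 was -0.12 in limma, and its BAF250A minus BRD9 difference was 0.34 in limma and 0.35 on the knockdown libraries alone, against -0.0022 from the tables. With 1 library left out, log2 values ran from -0.51 to 1.01 for Fos and -0.44 to 0.77 for Junb with BAF250A. With BRD9 they ran from -1.19 to 0.99 for Fos, -0.80 to 0.27 for Fosb, -1.04 to 0.17 for Junb, -1.16 to 0.67 for Egr1 and -0.42 to 0.24 for Srf. For BAF250A minus BRD9 they ran from -0.76 to 1.43 for Fos, -0.42 to 0.063 for Jund and -0.19 to 0.89 for Myc.

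Over all genes, BAF250A calls numbered 4729 as deposited, 1539 with Bonferroni, 693 with an empirical null and 2107 to 5817 with 1 library left out. BRD9 calls numbered 2483, 924, 873 and 1112 to 4726 under the same settings. Differences between the knockdowns numbered 414, then 1086 with the shared control variance, 271 over genes with a mean of 100 or more, 271 at an adjusted p below 0.01, 664 in limma, 1554 on the knockdown libraries alone and 198 to 1525 with 1 library left out. Scaling by total reads moved the median of all genes by -0.13 for BAF250A and -0.04 for BRD9. No paired analysis was possible because the deposited columns carry no replicate number, and the solved libraries cannot be tied to one.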
